A study of Mus musculus with 4 samples.

Results

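The genes described here are 38 mouse genes of cholesterol, fatty acid and glycerolipid synthesis and their regulation, out of 41128 gene identifiers in the deposited count table. They were chosen by name, and each name matched an Ensembl identifier of the table. They fall into 14 enzymes of sterol synthesis, 6 genes that regulate sterol or lipid synthesis or carry sterol within the cell, 6 genes that supply and join the building blocks of fatty acids, 7 elongases and desaturases, and 5 enzymes of glycerolipid synthesis. All 38 had at least 10 estimated counts in each of the 4 libraries, and the lowest count of any of them was 44.

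Expression was measured by RNA sequencing of liver cells from C57BL/6 mice with experimental alcoholic hepatitis. The mice ate a high cholesterol and fat diet for 40% of their calories and were given the remaining 60% as an alcohol liquid diet through a tube into the stomach, with an alcohol binge added each week, and all 4 libraries share this treatment. After collagenase digestion, removal of hepatocytes by slow centrifugation and removal of CD45+ cells with magnetic beads, the remaining cells were stained for Prom1 (CD133) and CD49f (integrin alpha 6) and sorted. The libraries are Prom1+CD49f+CD45- cells, Prom1-CD49f+CD45- cells, a library labelled Prom1+CD49f+CD45+, and the presorted CD45- cells. Each is 1 library of RNA pooled from 2 mice, so no difference has a replicate check and no test between populations was possible.

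The total estimated counts ranged from 14670239 in Prom1-CD49f+CD45- cells to 52293939 in presorted CD45- cells. Levels are CPM scaled by TMM, edgeR's trimmed mean method (scaled CPM). Prom1 was at 355 scaled CPM in Prom1+CD49f+CD45- cells, 31.1 in Prom1-CD49f+CD45- cells, 11.4 in the library labelled Prom1+CD49f+CD45+, against 67.1 in presorted CD45- cells. Ptprc, the gene of CD45, was at 6.33, 3.60, 14.5 and 20.97 scaled CPM in the same order. The third of these libraries therefore goes against its label, since Prom1 was lowest there and Ptprc was lower there than in presorted CD45- cells, and it is called by its label throughout. The summed level of 10 cholangiocyte markers was 25087 scaled CPM in Prom1+CD49f+CD45- cells, 9464 in Prom1-CD49f+CD45- cells, 438 in the library labelled Prom1+CD49f+CD45+, against 4067 in presorted CD45- cells. Spp1 alone held 19684, 8188, 309 and 3103 scaled CPM of these sums in that order, and the medians were 486, 167, 8.1 and 82.8. The sum of 12 hepatocyte markers was 5011, 4120, 457 and 21479 scaled CPM in that order, while their medians were 71.7, 215, 27.1 and 760. Alb, the albumin gene, held 3241 scaled CPM of the Prom1+CD49f+CD45- sum. The sum of 9 endothelial markers was 112, 5978, 13778 and 10497. Sums were 8.96, 58.1, 99.2 and 598 scaled CPM for 7 Kupffer cell markers, 56.4, 2504.5, 578 and 1214 for 9 stellate, fibroblast and mesothelial markers, and 8.46, 14.3, 81.9 and 185 for 6 lymphocyte and neutrophil markers, of which Cd3e was at 0 in both sorted CD45- libraries and Cd3g in Prom1-CD49f+CD45- cells. In bulk RNA, fewer cells of a type and less RNA per cell cannot be told apart, and the part of these cell mixtures in the results below was not tested.

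Liver cells make cholesterol from acetyl-CoA through the mevalonate pathway, which leads through isoprenoid units to squalene and then to sterols, and the SREBP transcription factors switch on most of its genes when sterol in the endoplasmic reticulum is low. Insig proteins hold SREBP in that membrane when sterol is high. Fatty acids are built from acetyl-CoA and malonyl-CoA by fatty acid synthase, then lengthened and desaturated, and are joined to glycerol phosphate to give phospholipids and triglycerides. In liver the lipogenic genes respond to insulin through SREBP-1c and to glucose through the factor ChREBP, and hepatocytes are the main site of this synthesis.

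Upstream sequence was available for 29 of the 38 genes, as windows from 250 bases before to 50 bases after a RefSeq transcription start (build GRCm38.p6). Scd1, Scd2, Dgat1, Dgat2, Fdft1, Fdps, Sqle, Stard4 and Fads1 had no window. A total of 3 motifs were searched on both strands: TCACNCCAC, the core of the sterol regulatory element bound by SREBP, CACGTG, the E-box, and CCAAT, the box bound by NF-Y, which acts beside SREBP at sterol genes. CCAAT was present in 24 of the 29 genes (82.8%), against 41.1% of 27025 genes with a window, and in 11 of 11 sterol enzymes with a window. CACGTG was present in 5 of 29 (17.2%), namely Dhcr7, Elovl5, Insig1, Mlxipl and Sc5d, against 8.09% of all genes. TCACNCCAC was present in 2 of 29 (6.9%), Hmgcs1 and Mlxipl, against 1.44% of all genes. Genes with several starts had several windows and counted as holding a motif if any window did. These are matches of letters, and no binding was measured.

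The following windows are shown because they hold those matches, written in the direction of the gene with every match to any of the 3 motifs in capitals (ATTGG is CCAAT read on the other strand). Hmgcs1 (chr13:119690101-119690400, plus strand) and Mlxipl (chr5:135106641-135106940, plus strand) hold the TCACNCCAC matches, spelled TCACCCCAC at positions -137 to -129 of Hmgcs1 and TCACACCAC at positions -136 to -128 of Mlxipl, counted from the start site. Mvd (chr8:122443373-122443672, minus strand) is a sterol gene that was highest in Prom1-CD49f+CD45- cells. Cyp51 (chr5:4104648-4104947, minus strand), Lss (chr10:76531355-76531654, plus strand) and Fasn (chr11:120824498-120824797, minus strand) were added after their values were seen, as genes called higher in Prom1+CD49f+CD45- than in Prom1-CD49f+CD45- cells. A CCAAT and an ATTGG share bases in the Fasn window.
Hmgcs1: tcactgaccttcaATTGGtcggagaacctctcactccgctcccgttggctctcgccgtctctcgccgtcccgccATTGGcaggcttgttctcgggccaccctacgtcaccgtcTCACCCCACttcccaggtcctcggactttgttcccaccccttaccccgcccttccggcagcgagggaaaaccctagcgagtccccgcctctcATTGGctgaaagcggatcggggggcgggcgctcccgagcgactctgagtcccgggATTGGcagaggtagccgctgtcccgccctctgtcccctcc
Mlxipl: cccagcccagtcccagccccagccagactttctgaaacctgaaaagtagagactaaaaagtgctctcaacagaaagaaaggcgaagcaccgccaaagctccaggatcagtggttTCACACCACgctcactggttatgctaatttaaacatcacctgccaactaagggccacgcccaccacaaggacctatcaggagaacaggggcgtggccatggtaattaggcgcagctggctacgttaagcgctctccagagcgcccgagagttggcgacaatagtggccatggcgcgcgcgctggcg
Mvd: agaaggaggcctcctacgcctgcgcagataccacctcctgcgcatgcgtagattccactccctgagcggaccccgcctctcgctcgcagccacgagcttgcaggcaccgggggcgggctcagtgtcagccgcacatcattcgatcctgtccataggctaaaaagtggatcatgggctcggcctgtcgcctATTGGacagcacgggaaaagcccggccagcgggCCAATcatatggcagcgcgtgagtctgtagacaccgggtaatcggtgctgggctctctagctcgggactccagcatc
Cyp51: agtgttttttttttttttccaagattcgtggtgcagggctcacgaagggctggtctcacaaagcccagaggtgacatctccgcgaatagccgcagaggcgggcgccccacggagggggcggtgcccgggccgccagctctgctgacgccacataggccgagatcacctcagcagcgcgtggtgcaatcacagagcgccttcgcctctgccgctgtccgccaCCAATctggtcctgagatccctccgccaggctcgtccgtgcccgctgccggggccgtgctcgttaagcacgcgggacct
Lss: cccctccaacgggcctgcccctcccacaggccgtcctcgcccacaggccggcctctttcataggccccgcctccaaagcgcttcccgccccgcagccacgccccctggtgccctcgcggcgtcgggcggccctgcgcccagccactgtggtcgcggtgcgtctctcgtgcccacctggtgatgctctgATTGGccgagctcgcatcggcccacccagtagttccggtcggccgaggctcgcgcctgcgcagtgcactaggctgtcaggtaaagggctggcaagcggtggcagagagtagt
Fasn: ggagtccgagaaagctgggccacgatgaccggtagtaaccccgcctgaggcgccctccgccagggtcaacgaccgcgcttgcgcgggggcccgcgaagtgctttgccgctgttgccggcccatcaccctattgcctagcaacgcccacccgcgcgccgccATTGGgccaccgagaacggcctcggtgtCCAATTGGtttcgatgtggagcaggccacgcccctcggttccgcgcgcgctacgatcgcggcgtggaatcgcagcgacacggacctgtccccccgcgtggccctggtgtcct

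Prom1+CD49f+CD45- cells had higher levels of many lipid synthesis genes than the other sorted libraries, and fewer of the genes differed between these cells and presorted CD45- cells than for the other sorted libraries. Summed over the 38 genes, the level was 2007 scaled CPM in Prom1+CD49f+CD45- cells, 1303 in Prom1-CD49f+CD45- cells, 1096 in the library labelled Prom1+CD49f+CD45+, against 3068 in presorted CD45- cells. Scd1 and Dgat2 made up much of the presorted sum. Without them the sum over the other 36 genes was 1898 scaled CPM in Prom1+CD49f+CD45- cells, 1220 in Prom1-CD49f+CD45- cells, 1069 in the library labelled Prom1+CD49f+CD45+, against 2030 in presorted CD45- cells. The highest level of a gene lay in Prom1+CD49f+CD45- cells for 15 genes, in Prom1-CD49f+CD45- cells for 6, in the library labelled Prom1+CD49f+CD45+ for 1 (Stard4) and in presorted CD45- cells for 16. Over all compared genes those shares were 24.9%, 19.6%, 35.5% and 20.1%. The lowest level lay in Prom1+CD49f+CD45- cells for 6 genes (Mvk, Thrsp, Acacb, Elovl1, Elovl5 and Fads1), in Prom1-CD49f+CD45- cells for 12 and in the library labelled Prom1+CD49f+CD45+ for 20. None of the 38 was lowest in presorted CD45- cells, where 24.8% of all compared genes had their lowest level. The shares of all compared genes lowest in the 3 sorted libraries were 22.9%, 29.7% and 22.6% in that order, so the 12 genes lowest in Prom1-CD49f+CD45- cells are near that background. In 20 of the 38 genes (52.6%), the exact 95% Poisson intervals of neighbouring libraries in the order of levels did not overlap. This held for 21.1% of the 21640 compared genes, many of them low, and for 31.5% of the 13852 genes with at least 10 counts in all 4 libraries.

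**Figure D1:**
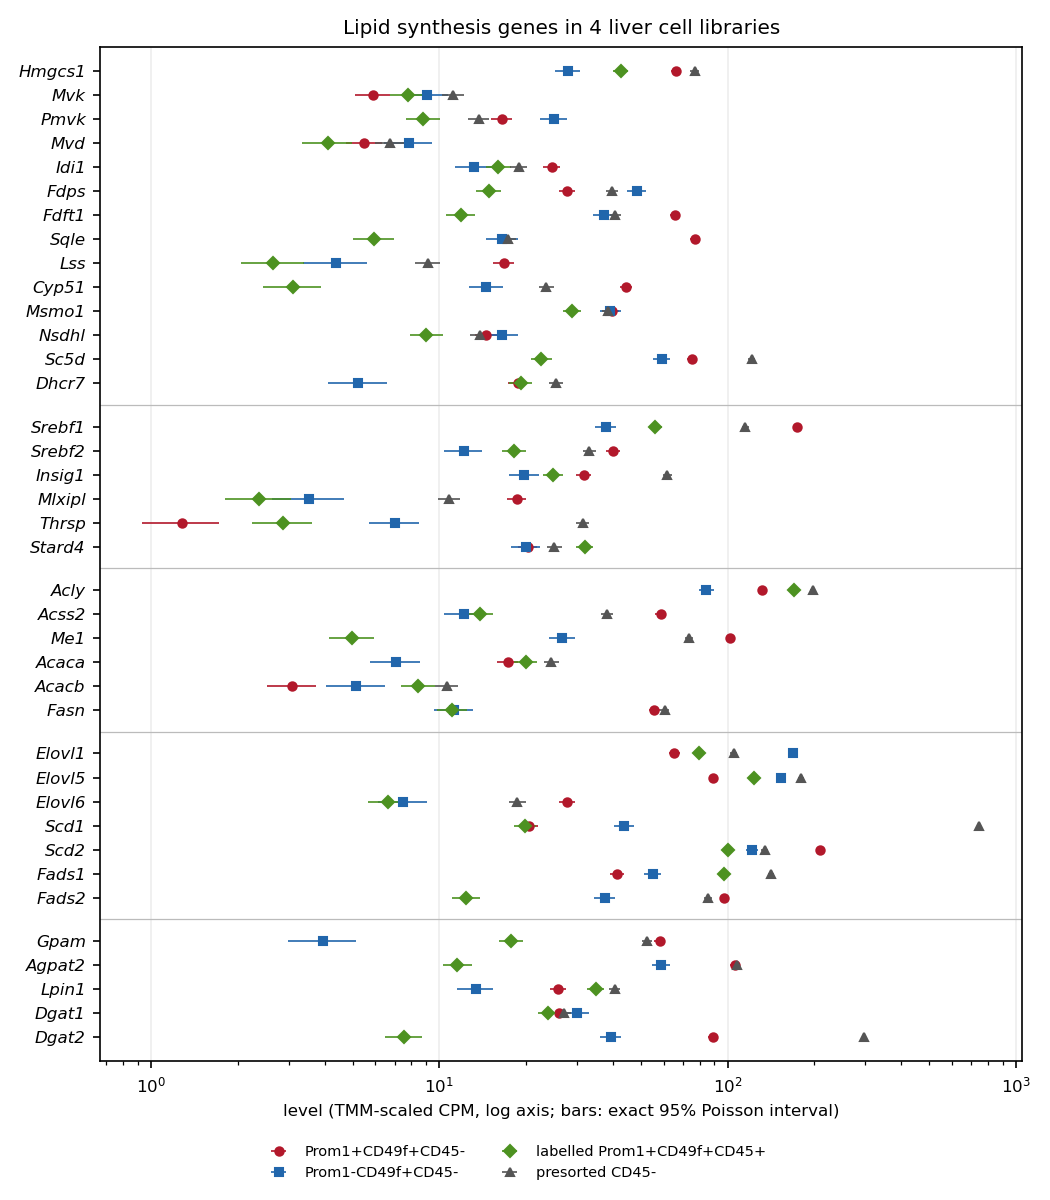
Level of each of the 38 genes in the 4 libraries, in TMM-scaled CPM on a log axis, with exact 95% Poisson intervals that cover counting error only; genes are grouped by their step of lipid synthesis. Scd1 reached 742 in presorted CD45- cells, and Thrsp in Prom1+CD49f+CD45- cells was the lowest value at 1.28.

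A pair of libraries was compared by the ratio of scaled counts with an exact 95% interval, and a gene was called higher or lower where the whole interval lay beyond 2-fold. These intervals cover counting error only, and amplified reads without molecular identifiers are not independent molecules, so they may be too narrow even for that. Of the 38 genes, 15 were higher (39.5%) and 2 lower (5.3%) in Prom1+CD49f+CD45- than in Prom1-CD49f+CD45- cells, against 15.5% higher and 12.7% lower among the 21640 genes compared. The median log2 ratio was 0.83 for the 38 genes and 0.31 for all genes. Set against the library labelled Prom1+CD49f+CD45+, Prom1+CD49f+CD45- cells had 15 of the genes higher and 2 lower, where the shares of all genes were 12.5% and 13.1%, with medians of 0.79 and -0.17. Both comparisons share the Prom1+CD49f+CD45- library, so their counts are not separate evidence.

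Set against presorted CD45- cells, the 3 sorted libraries differed. Prom1+CD49f+CD45- cells had 1 gene higher, Sqle, and 5 lower, which is 2.6% and 13.2% of the 38 against 27.6% and 15.6% of all genes, and the share lower was near that background. Prom1-CD49f+CD45- cells had none higher and 19 lower (50%), against 9.77% and 14.1% of all genes, with a median log2 ratio of -1.13 for the 38 genes and -0.01 for all genes. The library labelled Prom1+CD49f+CD45+ had none higher and 18 lower (47.4%), against 23.8% and 12.1% of all genes, with medians of -0.95 and -0.01. All 12 hepatocyte markers were also called lower in Prom1-CD49f+CD45- cells and in the library labelled Prom1+CD49f+CD45+, with 10 of 12 lower in Prom1+CD49f+CD45- cells, each over presorted CD45- cells. The 3 comparisons share the presorted library. Of the 38 genes, 28 were called in at least 1 of the 5 comparisons, and Mvk, Pmvk, Mvd, Idi1, Msmo1, Nsdhl, Stard4, Elovl5, Scd2 and Dgat1 in none.

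All 38 genes passed a minimum in every library, which low genes do not. Among the 13852 genes with at least 10 counts in all 4 libraries, an alternative chosen after the data were seen, 16.7% were higher and 15.2% lower in Prom1+CD49f+CD45- over Prom1-CD49f+CD45- cells. The shares higher and lower among those genes were 15.2% and 14.4% for Prom1+CD49f+CD45- cells over the library labelled Prom1+CD49f+CD45+. Over presorted CD45- cells they were 14.9% and 18.1% for Prom1+CD49f+CD45- cells, 7.28% and 18.8% for Prom1-CD49f+CD45- cells, and 7.14% and 14.4% for the library labelled Prom1+CD49f+CD45+. The closest genes to the 2-fold line in Prom1+CD49f+CD45- over Prom1-CD49f+CD45- cells were Dgat2, called at 2.25 (2.06 to 2.47), and Acaca, not called at 2.44 (1.97 to 3.05). Across 13320 genes that ratio went up with exon length (Spearman rho of 0.301). Its median log2 ratio was -0.74 in the shortest twentieth of genes and 0.74 in the longest. With the trend removed 16 of the 38 genes were higher and 2 lower, against 18.2% and 10.8% of all genes. Over presorted CD45- cells, rho was -0.273 for Prom1-CD49f+CD45- cells and 0.235 for the library labelled Prom1+CD49f+CD45+. With the trend removed 15 and 18 of the 38 genes were lower there, against 12.5% and 11.4% of all genes. With library totals in place of TMM 16 and 13 were lower, against 11% and 9.58% of all genes.

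**Figure D2:**
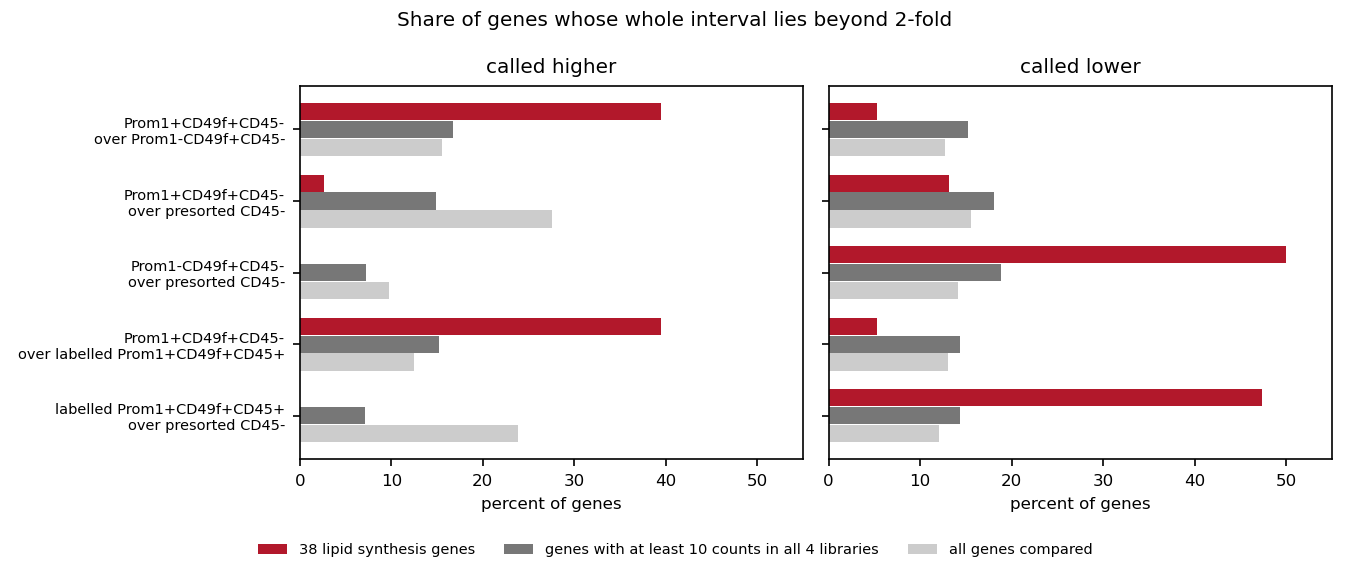
Share of genes called higher or lower in each of the 5 comparisons, in percent. Bars show the 38 lipid synthesis genes, the 13852 genes with at least 10 counts in all 4 libraries, and all 21640 compared genes. The share called lower reached 50% in Prom1-CD49f+CD45- over presorted CD45- cells and 47.4% in the library labelled Prom1+CD49f+CD45+ over presorted CD45- cells, against 14.1% and 12.1% of all genes.

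Among the sterol enzymes, those around squalene and lanosterol (Sqle, Lss and Cyp51) were higher in Prom1+CD49f+CD45- cells than in both other sorted libraries, while of the earlier mevalonate enzymes Hmgcs1 alone was called higher, and that over Prom1-CD49f+CD45- cells. Of the 14 sterol enzymes, 5 were higher in Prom1+CD49f+CD45- than in Prom1-CD49f+CD45- cells (Hmgcs1, Sqle, Lss, Cyp51 and Dhcr7) and none was lower. This is 35.7% and 0%, against 15.5% and 12.7% of all genes. Compared with the library labelled Prom1+CD49f+CD45+, Prom1+CD49f+CD45- cells had Fdft1, Sqle, Lss, Cyp51 and Sc5d higher, which is 5 of 14, and none lower. The shares of all genes there were 12.5% and 13.1%. Summed over the 14 enzymes, the level was 498 scaled CPM in Prom1+CD49f+CD45- cells, 324 in Prom1-CD49f+CD45- cells, 197 in the library labelled Prom1+CD49f+CD45+, against 456 in presorted CD45- cells.

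Hmgcs1, which makes HMG-CoA at the entry of the pathway, was at 66.3 scaled CPM in Prom1+CD49f+CD45- cells, 27.9 in Prom1-CD49f+CD45- cells, 42.6 in the library labelled Prom1+CD49f+CD45+, against 76.8 in presorted CD45- cells. It was 2.38-fold (2.13 to 2.65) higher in Prom1+CD49f+CD45- than in Prom1-CD49f+CD45- cells, and 2.75-fold (2.48 to 3.06) lower in Prom1-CD49f+CD45- than in presorted CD45- cells. The first of these calls was lost with DESeq2 size factors, where the ratio was 2.11. The next enzymes ran another way. The mevalonate kinase Mvk was at 5.87, 9.04, 7.78 and 11.1 scaled CPM in the same order of libraries, the phosphomevalonate kinase Pmvk at 16.5, 24.9, 8.78 and 13.7, and the decarboxylase Mvd at 5.49, 7.84, 4.11 and 6.73. All 3 were lower in Prom1+CD49f+CD45- than in Prom1-CD49f+CD45- cells by less than 2-fold. Idi1, which interconverts the isoprenoid units, was at 24.6, 13.1, 16.0 and 18.8 scaled CPM, and like Mvk, Pmvk and Mvd it was called in no comparison. Fdps, which makes farnesyl diphosphate, was highest in Prom1-CD49f+CD45- cells, at 27.7 scaled CPM in Prom1+CD49f+CD45- cells, 48.3 in Prom1-CD49f+CD45- cells, 14.8 in the library labelled Prom1+CD49f+CD45+, against 39.8 in presorted CD45- cells. It was 2.68-fold (2.40 to 3.01) lower in the library labelled Prom1+CD49f+CD45+ than in presorted CD45- cells.

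Sqle, squalene epoxidase, which catalyses a rate-limiting oxygen-dependent step, lies on chromosome 15 (mm10, 59315077 to 59331192, plus strand). It was at 76.9 scaled CPM in Prom1+CD49f+CD45- cells, 16.5 in Prom1-CD49f+CD45- cells, 5.92 in the library labelled Prom1+CD49f+CD45+, against 17.2 in presorted CD45- cells. It thus stood above all other libraries in Prom1+CD49f+CD45- cells, 4.66-fold (4.07 to 5.34) over Prom1-CD49f+CD45- cells, 13.0-fold (11.0 to 15.4) over the library labelled Prom1+CD49f+CD45+ and 4.46-fold (4.12 to 4.84) over presorted CD45- cells. The lanosterol synthase Lss, which closes the sterol rings, was at 16.7, 4.38, 2.66 and 9.11 scaled CPM in that order, and Cyp51, the lanosterol demethylase, at 44.4, 14.6, 3.10 and 23.5. Both followed Sqle. Lss was 3.82-fold (2.93 to 5.04) and Cyp51 3.05-fold (2.64 to 3.55) higher in Prom1+CD49f+CD45- than in Prom1-CD49f+CD45- cells, and Cyp51 was 14.3-fold (11.4 to 18.2) higher than in the library labelled Prom1+CD49f+CD45+. Cyp51 was 1.89-fold (1.75 to 2.05) over presorted CD45- cells, which was not called.

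Fdft1, the squalene synthase that commits farnesyl units to sterol, was at 65.7 scaled CPM in Prom1+CD49f+CD45- cells, 37.2 in Prom1-CD49f+CD45- cells, 11.9 in the library labelled Prom1+CD49f+CD45+, against 40.8 in presorted CD45- cells. It was 5.53-fold (4.90 to 6.27) higher in Prom1+CD49f+CD45- cells than in the library labelled Prom1+CD49f+CD45+. Its exons share 774 bases with Ctsb on the other strand, a gene with 20428, 34136, 71117 and 148099 counts in the order of libraries above, and the sources used here do not say whether reads were counted by strand. Sc5d, a late desaturase of the sterol ring, was at 75.2, 59.2, 22.6 and 121 scaled CPM, and was 3.33-fold (3.03 to 3.65) higher in Prom1+CD49f+CD45- cells than in the library labelled Prom1+CD49f+CD45+. Dhcr7, which reduces 7-dehydrocholesterol to cholesterol, was lowest in Prom1-CD49f+CD45- cells, at 18.7, 5.23, 19.1 and 25.4 scaled CPM. Its ratio was 3.58 (2.81 to 4.62) for Prom1+CD49f+CD45- over Prom1-CD49f+CD45- cells. The methyl oxidase Msmo1, at 39.8, 39.2, 28.9 and 38.5 scaled CPM, and the decarboxylase Nsdhl, at 14.5, 16.5, 9.02 and 13.9, varied least among the later enzymes.

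Split after the values were seen at the step that commits to squalene, the 6 enzymes up to Fdps had a median log2 ratio of -0.56 in Prom1+CD49f+CD45- over Prom1-CD49f+CD45- cells, and the 8 from Fdft1 on had 1.22. For Prom1+CD49f+CD45- cells over the library labelled Prom1+CD49f+CD45+, the medians were 0.63 and 2.10, with 0 of 6 and 5 of 8 enzymes called higher, against 12.5% of all genes. This split describes these libraries and was given no test. In the library labelled Prom1+CD49f+CD45+ over presorted CD45- cells 6 of the 14 sterol enzymes (42.9%) were lower, against 12.1% of all genes. They were Fdps, Fdft1, Sqle, Lss, Cyp51 and Sc5d, by 2.68-fold to 7.57-fold, with Cyp51 (6.00 to 9.68) the lowest. With library totals Fdps (ratio 0.472) and Sqle (0.435) were not called there. Cyp51 exons overlap Akap9 by 166 bases on the other strand.

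**Figure D3:**
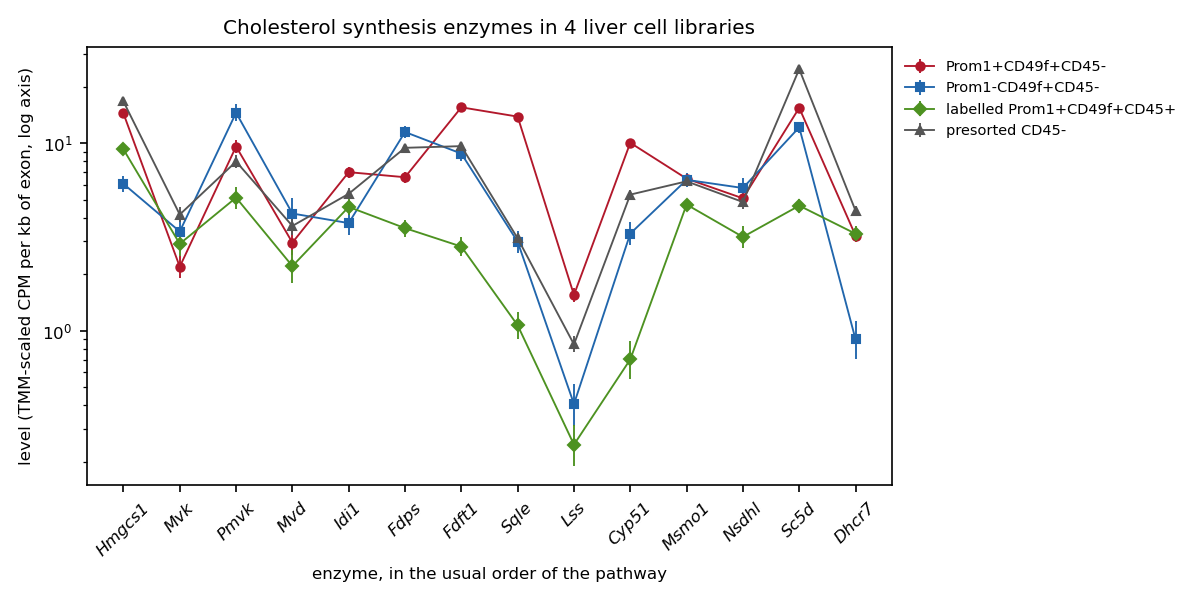
Levels of the 14 sterol enzymes in the order of their reactions, in TMM-scaled CPM per kilobase of exon on a log axis, 1 line per library. The Prom1+CD49f+CD45- line lies above the others at Idi1, Fdft1, Sqle, Lss, Cyp51 and, with overlapping intervals, Msmo1. The library labelled Prom1+CD49f+CD45+ is lowest at all of these but Idi1.

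Of the regulators, the SREBP genes and ChREBP were higher in Prom1+CD49f+CD45- than in Prom1-CD49f+CD45- cells, and Thrsp was lower. Of the 6 regulators and transfer genes, 3 were higher (50%) and 1 lower (16.7%) in Prom1+CD49f+CD45- than in Prom1-CD49f+CD45- cells. The shares of all genes were 15.5% and 12.7%, so the share lower was near that background. In Prom1-CD49f+CD45- over presorted CD45- cells, 5 were lower (83.3%), against 14.1% of all genes. With the trend with exon length removed, Srebf2 (ratio 0.498) and Mlxipl (0.407) were not called in the second of these comparisons, leaving 3 genes lower, against 12.5% of all genes. Srebf1, which encodes SREBP-1, was at 174.5 scaled CPM in Prom1+CD49f+CD45- cells, 37.7 in Prom1-CD49f+CD45- cells, 56.2 in the library labelled Prom1+CD49f+CD45+, against 115 in presorted CD45- cells. It was highest in Prom1+CD49f+CD45- cells, 4.63-fold (4.24 to 5.06) over Prom1-CD49f+CD45- cells and 3.11-fold (2.93 to 3.29) over the library labelled Prom1+CD49f+CD45+. Its exons overlap Rai1 by 109 bases on the other strand, and gene counts do not separate its SREBP-1a and SREBP-1c transcripts.

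Srebf2, which encodes the sterol-responsive SREBP-2, was at 40.0, 12.2, 18.2 and 33.1 scaled CPM in the order Prom1+CD49f+CD45-, Prom1-CD49f+CD45-, the library labelled Prom1+CD49f+CD45+ and presorted CD45-. It was 3.29-fold (2.81 to 3.88) higher in Prom1+CD49f+CD45- than in Prom1-CD49f+CD45- cells, and its ratio of 2.20 (1.98 to 2.45) over the library labelled Prom1+CD49f+CD45+ was not called. That ratio passed the threshold with library totals, DESeq2 size factors or the length trend removed (2.27 to 2.34). Mlxipl, which encodes ChREBP, was at 18.5, 3.53, 2.38 and 10.8 scaled CPM in that order. Its ratio was 5.25 (3.93 to 7.14) over Prom1-CD49f+CD45- cells and 7.79 (5.96 to 10.4) over the library labelled Prom1+CD49f+CD45+. Both transcription factor genes were thus highest in Prom1+CD49f+CD45- cells, although neither was called against presorted CD45- cells. Insig1, the sterol-sensitive anchor of SREBP, was at 31.7, 19.6, 24.8 and 61.8 scaled CPM, and was 3.15-fold (2.78 to 3.58) lower in Prom1-CD49f+CD45- than in presorted CD45- cells. The sterol carrier Stard4 was at 20.3, 19.9, 32.0 and 25.1 scaled CPM and was called in no comparison.

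Thrsp, a small lipogenic protein abundant in hepatocytes, ran against the other regulators. It was at 1.28 scaled CPM in Prom1+CD49f+CD45- cells, 6.99 in Prom1-CD49f+CD45- cells, 2.86 in the library labelled Prom1+CD49f+CD45+, against 31.5 in presorted CD45- cells, from counts of 44, 99, 71 and 1398. It was 5.45-fold (3.78 to 7.96) lower in Prom1+CD49f+CD45- than in Prom1-CD49f+CD45- cells and 24.5-fold (18.2 to 33.9) lower than in presorted CD45- cells. Hepatocyte markers were called lower in 6 and higher in 3 of 12 in the first of these comparisons and lower in 10 of 12 in the second.

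**Figure D4:**
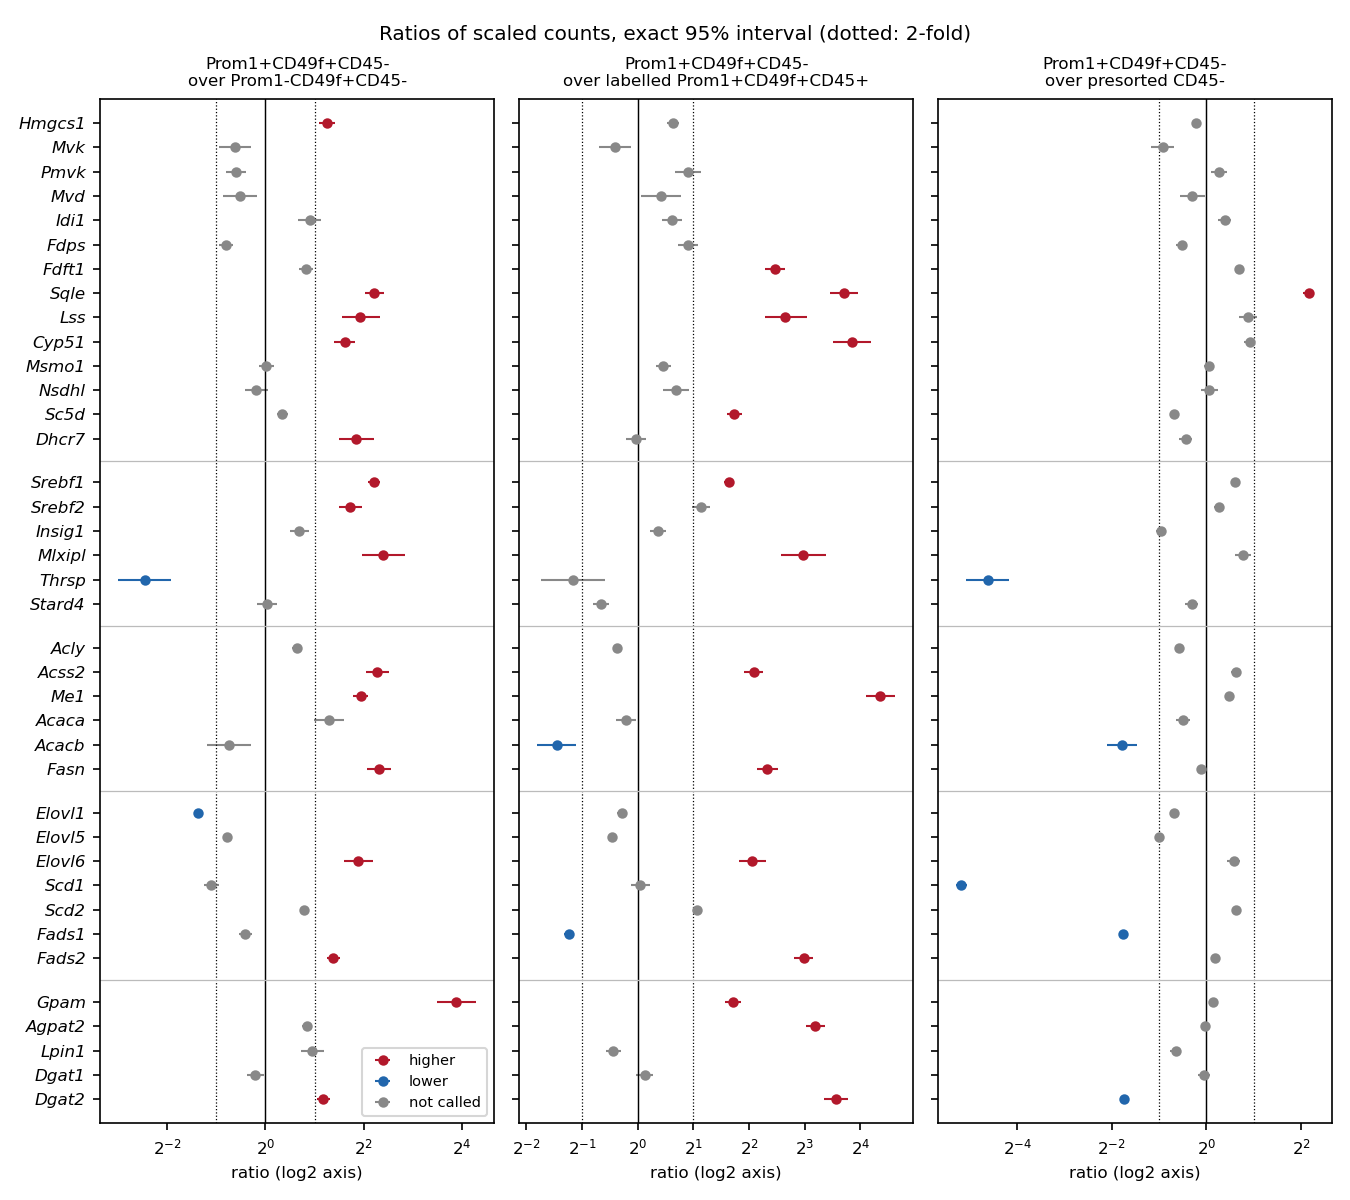
Ratios of Prom1+CD49f+CD45- cells over Prom1-CD49f+CD45- cells, over the library labelled Prom1+CD49f+CD45+ and over presorted CD45- cells for the 38 genes, on a log2 axis with exact 95% intervals of counting error. Gpam has the highest ratio over Prom1-CD49f+CD45- cells (14.7), and Scd1 the lowest over presorted CD45- cells (36.2-fold lower).

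Of the genes that make fatty acids from acetyl-CoA, Acss2, Me1 and Fasn were called higher in Prom1+CD49f+CD45- than in Prom1-CD49f+CD45- cells. Acly and the carboxylases Acaca and Acacb were not called. Acly and Acaca were also at a higher level there, with Acaca at a ratio of 2.44 (1.97 to 3.05) and called with library totals (2.87), and only Acacb was lower. Of these 6 genes, 3 were thus called higher (50%) and none lower in Prom1+CD49f+CD45- than in Prom1-CD49f+CD45- cells, against 15.5% and 12.7% of all genes. All but Acacb, which is 5 of 6 (83.3%), were called lower in Prom1-CD49f+CD45- than in presorted CD45- cells, against 14.1% of all genes. Each alternative scaling, and removal of the length trend, left 4 of the 5. Me1, the malic enzyme that supplies NADPH, was at 102 scaled CPM in Prom1+CD49f+CD45- cells, 26.7 in Prom1-CD49f+CD45- cells, 4.996 in the library labelled Prom1+CD49f+CD45+, against 73.5 in presorted CD45- cells. It was 3.83-fold (3.44 to 4.26) higher in Prom1+CD49f+CD45- than in Prom1-CD49f+CD45- cells and 20.4-fold (17.1 to 24.6) higher than in the library labelled Prom1+CD49f+CD45+, which was 14.7-fold (12.3 to 17.8) below presorted CD45- cells.

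Acss2, which makes acetyl-CoA from acetate, a product of ethanol oxidation, was at 58.7 scaled CPM in Prom1+CD49f+CD45- cells, 12.2 in Prom1-CD49f+CD45- cells, 13.9 in the library labelled Prom1+CD49f+CD45+, against 38.3 in presorted CD45- cells. Its ratio was 4.83 (4.14 to 5.68) over Prom1-CD49f+CD45- cells and 4.24 (3.78 to 4.77) over the library labelled Prom1+CD49f+CD45+. Its exons overlap Gss by 395 bases and Ggt7 by 197 bases on the other strand. Fasn, the fatty acid synthase, was at 55.7, 11.2, 11.1 and 60.4 scaled CPM in the same order, so that Prom1+CD49f+CD45- and presorted CD45- cells were within 2-fold of each other and the other libraries were lower. Fasn was 5.38-fold (4.58 to 6.35) lower in Prom1-CD49f+CD45- than in presorted CD45- cells, and 5.45-fold (4.81 to 6.20) lower in the library labelled Prom1+CD49f+CD45+.

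Acly, ATP citrate lyase, was at 131.5, 84.4, 169.9 and 197 scaled CPM in the order Prom1+CD49f+CD45-, Prom1-CD49f+CD45-, the library labelled Prom1+CD49f+CD45+ and presorted CD45-. It was called only in Prom1-CD49f+CD45- over presorted CD45- cells, where it was 2.33-fold (2.20 to 2.48) lower, and with library totals, DESeq2 size factors or the length trend removed it was not called there. Acaca, the cytosolic acetyl-CoA carboxylase, was at 17.2, 7.06, 19.9 and 24.4 scaled CPM, and was 3.46-fold (2.82 to 4.29) lower in Prom1-CD49f+CD45- than in presorted CD45- cells. Acacb, the mitochondrial form whose product restrains fatty acid oxidation, was at 3.09, 5.16, 8.46 and 10.6 scaled CPM. Acacb was lowest in Prom1+CD49f+CD45- cells, 3.43-fold (2.78 to 4.28) below presorted CD45- cells and 2.73-fold (2.16 to 3.49) below the library labelled Prom1+CD49f+CD45+. The call against that library was lost with the length trend removed (ratio 0.398).

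Among elongases and desaturases the library with the highest level differed from gene to gene. Elovl6 and Fads2 were higher in Prom1+CD49f+CD45- than in Prom1-CD49f+CD45- cells and Elovl1 lower. These are 2 of 7 higher (28.6%) and 1 lower (14.3%), against 15.5% and 12.7% of all genes, and the share lower was near that background. Scd1 stood out in presorted CD45- cells. Elovl6, which lengthens palmitate to stearate, was at 27.8 scaled CPM in Prom1+CD49f+CD45- cells, 7.49 in Prom1-CD49f+CD45- cells, 6.65 in the library labelled Prom1+CD49f+CD45+, against 18.6 in presorted CD45- cells. It was 3.71-fold (3.03 to 4.57) higher in Prom1+CD49f+CD45- than in Prom1-CD49f+CD45- cells. Against presorted CD45- cells, 4 of the 7 (57.1%) were lower in Prom1-CD49f+CD45- cells, where 14.1% of all genes were. With library totals or DESeq2 size factors 2 of the 7 were lower, against 11% and 11.3% of all genes, and Elovl6 and Fads2 were not called.

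Elovl1, an elongase of very long saturated chains, was at 65.4, 169, 79.5 and 104.8 scaled CPM in the same order, and was 2.59-fold (2.44 to 2.74) lower in Prom1+CD49f+CD45- than in Prom1-CD49f+CD45- cells, a call lost with the length trend removed (ratio 0.484). Its exons overlap Cdc20 by 53 bases on the other strand. Elovl5, an elongase of polyunsaturated chains, was at 89.0, 153, 123 and 179.6 scaled CPM and was called in no comparison. Both were lowest in Prom1+CD49f+CD45- cells. The desaturases of polyunsaturated fatty acids, Fads1 and Fads2, are neighbours on chromosome 19 and ran differently. Fads1 was at 41.4 scaled CPM in Prom1+CD49f+CD45- cells, 54.9 in Prom1-CD49f+CD45- cells, 97.3 in the library labelled Prom1+CD49f+CD45+, against 141 in presorted CD45- cells, while Fads2 was at 97.5, 37.4, 12.4 and 85.7. Fads1 was 2.35-fold (2.20 to 2.51) lower, and Fads2 was 7.88-fold (7.01 to 8.89) higher, in Prom1+CD49f+CD45- cells than in the library labelled Prom1+CD49f+CD45+.

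Scd1 and Scd2 encode stearoyl-CoA desaturases, which make monounsaturated fatty acids, and Scd1 is the main form of adult mouse liver. Scd1 (chromosome 19, mm10, 44394455 to 44407879, minus strand) was at 20.5 scaled CPM in Prom1+CD49f+CD45- cells, 43.9 in Prom1-CD49f+CD45- cells, 19.9 in the library labelled Prom1+CD49f+CD45+, against 742 in presorted CD45- cells. It was 36.2-fold (33.6 to 39.1) lower in Prom1+CD49f+CD45- and 37.4-fold (34.2 to 40.9) lower in the library labelled Prom1+CD49f+CD45+ than in presorted CD45- cells. Scd2 was at 208.4, 121.4, 100 and 134.3 scaled CPM, and no comparison called it. Its ratio for Prom1+CD49f+CD45- cells over the library labelled Prom1+CD49f+CD45+ was 2.08 (1.99 to 2.18), which passed 2-fold with library totals (2.19), DESeq2 size factors (2.14) or the length trend removed (2.16). Levels per kilobase of exon assume reads along the whole transcript, while the series title names Quant-seq, which counts transcript ends, so comparisons between genes are uncertain. On that scale Scd2 was above Scd1 in all 3 sorted libraries and below it in the presorted library. Per kilobase of exon, Scd1 was at 4.19 and Scd2 at 38.1 scaled CPM in Prom1+CD49f+CD45- cells, against 152 and 24.6 in presorted CD45- cells. Scd1 made up 9.89% of their summed level per kilobase in Prom1+CD49f+CD45- cells, 28.8% in Prom1-CD49f+CD45- cells, 18.1% in the library labelled Prom1+CD49f+CD45+, against 86.1% in presorted CD45- cells. The Scd genes are similar paralogs on chromosome 19, and reads that fit more than 1 of them make their split uncertain.

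**Figure D5:**
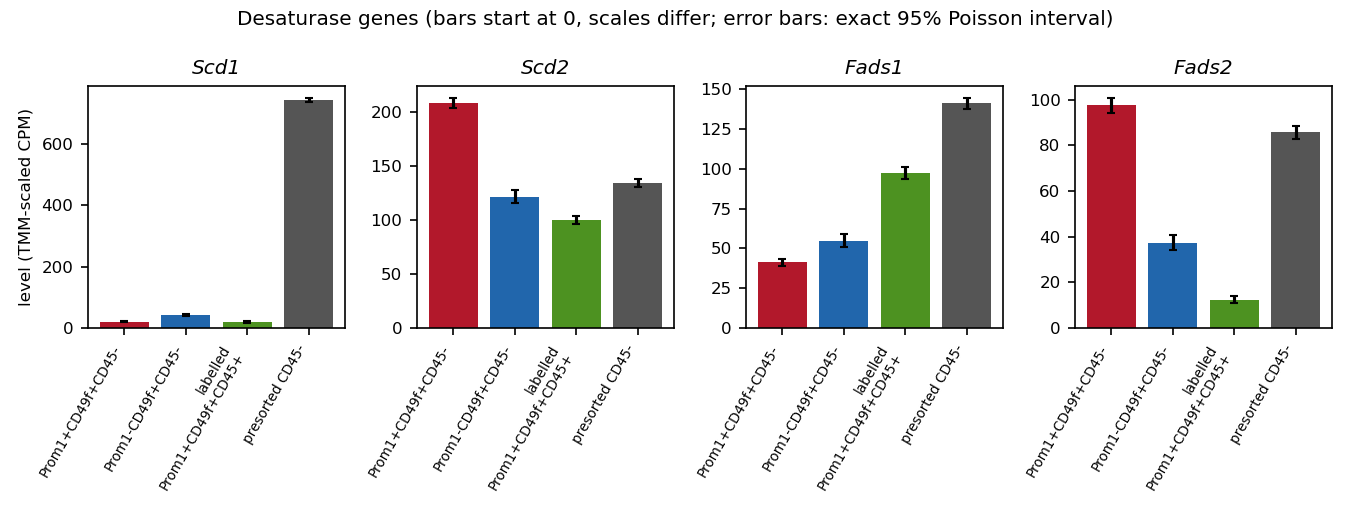
Levels of the stearoyl-CoA desaturases Scd1 and Scd2 and of the polyunsaturated fatty acid desaturases Fads1 and Fads2 in each library, in TMM-scaled CPM with exact 95% Poisson intervals of counting error. Scd1 reached 742 in presorted CD45- cells and at most 43.9 in a sorted library, while Scd2 lay between 100 and 208.4.

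In glycerolipid synthesis, Gpam had the largest ratio of the 38 genes between the sorted CD45- libraries, and Dgat2 was high in presorted CD45- cells. Of the 5 genes, Gpam and Dgat2 were higher in Prom1+CD49f+CD45- than in Prom1-CD49f+CD45- cells and none was lower. This is 40% and 0%, against 15.5% and 12.7% of all genes, and the Dgat2 call was lost with DESeq2 size factors (2.002). Gpam, the mitochondrial acyltransferase that adds the first acyl chain to glycerol phosphate (chromosome 19, mm10, 55067268 to 55127238, minus strand), was at 58.2 scaled CPM in Prom1+CD49f+CD45- cells, 3.96 in Prom1-CD49f+CD45- cells, 17.8 in the library labelled Prom1+CD49f+CD45+, against 52.5 in presorted CD45- cells. The low value rests on 56 counts. Gpam was 14.7-fold (11.3 to 19.5) higher in Prom1+CD49f+CD45- than in Prom1-CD49f+CD45- cells, and 13.3-fold (10.2 to 17.6) lower in Prom1-CD49f+CD45- than in presorted CD45- cells.

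Agpat2, which adds the second acyl chain, was at 105.7 scaled CPM in Prom1+CD49f+CD45- cells, 58.8 in Prom1-CD49f+CD45- cells, 11.6 in the library labelled Prom1+CD49f+CD45+, against 107.6 in presorted CD45- cells. It was 9.14-fold (8.10 to 10.3) higher in Prom1+CD49f+CD45- cells than in the library labelled Prom1+CD49f+CD45+. Its exons share 64 bases with Egfl7 on the other strand, an endothelial gene with 1225, 18019, 29710 and 30775 counts in the same order. Lpin1, a phosphatidate phosphatase, was at 25.8, 13.4, 34.9 and 40.5 scaled CPM and was 3.03-fold (2.61 to 3.54) lower in Prom1-CD49f+CD45- than in presorted CD45- cells, a call lost with the length trend removed (ratio 0.442).

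Dgat1 and Dgat2 both add the last acyl chain of triglyceride and share no protein family. Dgat1 was called in no comparison, at 26.0 scaled CPM in Prom1+CD49f+CD45- cells, 30.0 in Prom1-CD49f+CD45- cells, 23.8 in the library labelled Prom1+CD49f+CD45+, against 27.0 in presorted CD45- cells. Dgat2 was at 88.7, 39.3, 7.53 and 296.5 scaled CPM in the same order and was lower than in presorted CD45- cells in every sorted library, by 3.34-fold (3.21 to 3.48) in Prom1+CD49f+CD45- cells, 7.54-fold (6.92 to 8.22) in Prom1-CD49f+CD45- cells and 39.4-fold (34.1 to 45.7) in the library labelled Prom1+CD49f+CD45+.

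Other genes of fatty acid and glycerolipid synthesis were read from 2 further lists of 19 genes each. Of the 19 other fatty acid genes, 6 were higher in Prom1+CD49f+CD45- than in Prom1-CD49f+CD45- cells (Acsl1, Acsl3, Acsl4, Elovl7, Pnpla3 and Scd3, the last listed at 0 counts in Prom1-CD49f+CD45- cells) and none was lower, which is 31.6% and 0% against 15.5% and 12.7% of all genes. Elovl7 was at 102 scaled CPM in Prom1+CD49f+CD45- cells, 27.0 in Prom1-CD49f+CD45- cells, 6.20 in the library labelled Prom1+CD49f+CD45+, against 23.99 in presorted CD45- cells. Of the 19 other glycerolipid genes, 3 were higher (Chka, Lpin2 and Gpd1) and 3 lower (Agpat4, Agpat5 and Pemt) in that comparison, 15.8% each way, which is near the 15.5% and 12.7% of all genes. Chka, a choline kinase at the start of phosphatidylcholine synthesis, was at 320 scaled CPM in Prom1+CD49f+CD45- cells, 43.2 in Prom1-CD49f+CD45- cells, 18.1 in the library labelled Prom1+CD49f+CD45+, against 33.7 in presorted CD45- cells. Pemt, which makes phosphatidylcholine by another route and is typical of hepatocytes, was at 2.63, 15.1, 3.02 and 75.9.

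Set against presorted CD45- cells, Prom1+CD49f+CD45- cells had 4 fatty acid genes higher (Elovl4, Elovl7, Scd4 and Pnpla3) and 2 lower (Elovl2 and Elovl3), and 1 glycerolipid gene higher (Chka) and 8 lower. These are 21.1% and 10.5% of the fatty acid list and 5.26% and 42.1% of the glycerolipid list, against 27.6% and 15.6% of all genes. Elovl2, an elongase of the longest polyunsaturated chains, was at 8.72 scaled CPM in Prom1+CD49f+CD45- cells, 8.34 in Prom1-CD49f+CD45- cells, 2.86 in the library labelled Prom1+CD49f+CD45+, against 166 in presorted CD45- cells. Prom1-CD49f+CD45- cells had 5 fatty acid (Acsl1, Acsl4, Elovl2, Elovl3 and Hacd3) and 12 glycerolipid genes lower, and 2 higher, Elovl4 and Scd4, which had 12 and 14 counts in those cells. The shares lower were 26.3% and 63.2%, against 14.1% of all genes. The 2 higher were 10.5% of the fatty acid list, near the 9.77% of all genes. The library labelled Prom1+CD49f+CD45+ had 9 fatty acid and 6 glycerolipid genes lower, which is 47.4% and 31.6% against 12.1% of all genes. It also had 4 fatty acid genes higher (Elovl4, Scd3, Scd4 and Pnpla3), which is 21.1% of that list, near the 23.8% of all genes. Prom1+CD49f+CD45- cells over that library had 9 fatty acid and 3 glycerolipid genes (Chka, Pcyt2 and Gpd1) higher, which is 47.4% and 15.8% against 12.5% of all genes. In that comparison 4 glycerolipid genes (Gpat3, Agpat4, Agpat5 and Cds2) were lower, which is 21.1% of that list against 13.1% of all genes, and no fatty acid gene was.

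Cell markers also differed between these libraries, not all in the direction of the lipid synthesis genes. Between Prom1+CD49f+CD45- and Prom1-CD49f+CD45- cells, 7 of 10 cholangiocyte markers were higher, with none lower, and 9 of 9 endothelial markers were lower in the Prom1+CD49f+CD45- cells. Hepatocyte markers went both ways there, with 3 of 12 higher and 6 lower and a median log2 ratio of -0.62. Over the library labelled Prom1+CD49f+CD45+, these cells had 10 of 10 cholangiocyte and 7 of 12 hepatocyte markers higher and 9 of 9 endothelial markers lower. No cholangiocyte, hepatocyte or endothelial marker was at 0 counts in any library. The part of this composition in the levels of lipid synthesis genes was not tested.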

How the data were processed

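RNA of 4 liver cell populations was sequenced from polyA-selected stranded libraries, per the labels' protocols, while Quant-seq, which counts transcript ends, stands in the series title, and the 2 were not reconciled. Estimated counts were deposited by the authors, 50.5% to 60.5% of them whole numbers in each library, beside a normalized table. Per the submitters' processing notes, TopHat2, Partek 3 and mm10 were used. Settings and strand handling are not given in the labels or headers. The normalized table of the authors holds CPM with 1 added to each value, as recovered from the deposited values. The gene counts made up 67.1% to 88.4% of its divisors. The column named only CD45 was taken as the presorted CD45- cells, since every other column carried a population number.

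Of 41128 identifiers, 40254 matched a symbol in GENCODE vM21 (mm10). Estimated counts were rounded and scaled with TMM (edgeR 4.0.16, R 4.3.3). Genes reaching 10 counts in any library, 21640 in all, were compared as ratios with exact 95% Clopper-Pearson intervals (scipy 1.17.1), and called beyond 2-fold. The calls were tested on simulated counts. With 1 library per population there is no p-value or standard error, and precision is set by counting alone. The members and gene lists were chosen with earlier results of these data known. All members are accounted for, and other pathway genes were named where their interval lay farthest from 1 among those with at least 100 counts, up to 3 a list in each direction. Further names in counts of 6 or fewer, and genes marked as such, were chosen after their values were seen. Alternatives were other scalings, filters, fold thresholds, the authors' normalized values, removal of the trend with exon length, and a minimum in all 4 libraries. Results for a further list of sterol genes are not reported here.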

Additional observations from a re-analysis of the deposited data

How the results depend on the processing

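In most settings the counts of called genes were within 1.5 times those reported, and no called ratio of the 38 genes changed direction under the alternatives run. The share of all genes called under the same setting follows each count in brackets. With the fold threshold at 1.5 in place of 2, the count called lower was 5 (18.8%) in Prom1+CD49f+CD45- over Prom1-CD49f+CD45- cells. The counts in Prom1+CD49f+CD45- over presorted CD45- cells were 5 higher (33.6%) and 10 lower (22.2%), the second near that background. In Prom1-CD49f+CD45- over presorted CD45- cells 2 genes were higher (16.7%). At a threshold of 3, the counts were 8 higher (6.92%) and 1 lower (7.96%) in Prom1+CD49f+CD45- over Prom1-CD49f+CD45- cells, and 6 lower (6.45%) in Prom1-CD49f+CD45- over presorted CD45- cells. They were 0 lower (8.61%) in Prom1+CD49f+CD45- cells over the library labelled Prom1+CD49f+CD45+, and 11 lower (8.23%) in that library over presorted CD45- cells. Scaling by library totals gave 5 genes higher (33.6%) in Prom1+CD49f+CD45- over presorted CD45- cells, adding Fdft1, Lss, Cyp51 and Mlxipl to Sqle, and the authors' normalized values gave 3 (29.6%). Those values also gave 2 higher (27.1%) in Prom1-CD49f+CD45- over presorted CD45- cells. Removing the trend with exon length left 1 gene lower (13.4%) in Prom1+CD49f+CD45- cells over the library labelled Prom1+CD49f+CD45+. The cause of these moves was not tested beyond the change of threshold or scaling itself. Against TMM, library totals shifted every log2 ratio by 0.23, 0.42, 0.18 and 0.34 in Prom1+CD49f+CD45- over Prom1-CD49f+CD45-, Prom1+CD49f+CD45- over presorted, Prom1-CD49f+CD45- over presorted and the library labelled Prom1+CD49f+CD45+ over presorted. DESeq2 size factors (version 1.42.0) shifted them by -0.17 in the first and 0.17 in the third of these. Under DESeq2 size factors Hmgcs1 (2.11) and Dgat2 (2.002) were no longer called in Prom1+CD49f+CD45- over Prom1-CD49f+CD45- cells. With the length trend removed Elovl1 was at a ratio of 0.484 there and was not called. Scd1 was not called in Prom1+CD49f+CD45- over Prom1-CD49f+CD45- cells, at a ratio of 0.467 (0.419 to 0.521). It was called lower there with DESeq2 size factors (0.415) and with the length trend removed (0.419). Counting depth limits Thrsp, Mlxipl, Lss, Cyp51, Dhcr7, Acacb and Gpam most, which held under 100 counts in at least 1 library. No paired analysis was possible because each population had 1 library and no replicate numbers.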
